A study of Felis catus with 8 samples.

Results

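PPARA is a nuclear receptor of the liver that is activated by fatty acids and, as a pair with RXR, binds DNA beside the genes it controls. Its targets carry fatty acids into mitochondria and peroxisomes for oxidation, restrain lipoprotein lipase in blood, and encode hormones released in fasting. The 8 genes known as PPARA targets from human and rodent liver that were followed here are VNN1, ANGPTL4, CPT1A, PDK4, FGF21, CYP4A11, EHHADH and CREB3L3. A probe set was taken for a gene if the platform annotation named that gene alone. All 8 genes were among the 17910 genes measured. They had 89 such probe sets, of which 42 were bright enough to be kept. Bright enough meant a mean log2 intensity above 2.43, the median over every probe set on the arrays. A gene value is the mean log2 intensity of its kept probe sets.

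The tissue was liver of male domestic cats (Felis catus) aged 9 months, and 4 diets had 2 arrays each. Controls ate a standard chow. The MSG diet was chow with 1.125% monosodium glutamate. The trans-fat/HFCS diet contained 8.6% trans fat and 24% high-fructose corn syrup, and the combined diet contained these together with 1.125% MSG. Dams ate the same diet from 3 weeks before mating through nursing, and their sons were weaned onto it, so each difference between diets covers exposure before and after birth. The labels number the arrays as biological replicates and leave unsaid whether RNA was pooled and which cats were littermates. If they were, the p-values measure only the spread between these arrays. The arrays were human HuGene 1.0 ST arrays, so a cat transcript that differs in sequence from the human probes gives less signal, and the levels of different genes were not compared.

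The 8 arrays had median intensities from 5.25 to 5.28. The 10 hepatocyte markers, all measured, had summed intensities of 3599 and 3824 on the combined arrays, below the range of 3829 to 4383 on control and MSG arrays. The 11 skeletal muscle markers summed to 722 and 731 on the trans-fat/HFCS arrays and to between 164 and 192 on the other 6. The 4 cardiac and smooth muscle markers summed to 156 and 123 on trans-fat/HFCS arrays and 97.3 and 127 on combined arrays. On control and MSG arrays they summed to between 94.2 and 100. All 4 were positive in the mean of the differences with trans fat and HFCS, and none was called. Macrophage markers (5 of 5 measured) summed to 217 and 221 on the combined arrays, 176 and 202 on trans-fat/HFCS, 190 and 193 on control and 165 and 169 on MSG arrays. Of these, 3 were higher and 2 lower in the mean of the differences with trans fat and HFCS, and CD68 was called higher (0.78 on the log2 scale, limma adjusted p = 0.015). Adipocyte markers (5 of 6 measured) summed to 70.0 and 75.5 on the combined arrays, 70.9 and 96.1 on trans-fat/HFCS, 85.8 and 97.2 on control and at most 93.3 on MSG arrays, but went both ways, with ADIPOQ called higher by 0.58 (limma adjusted p = 0.043) and LEP lower (-0.63, adjusted p = 0.049). Stellate and fibroblast markers (3 of 3) summed to between 44.8 and 57.9 on the arrays with trans fat and between 61.6 and 66.0 on the others, with PDGFRB called lower (-0.60, limma adjusted p = 0.028). Among 3 pancreas markers 2 were positive and 1 negative, with a median of 0.06, and CELA3A alone was called higher (0.82, limma adjusted p = 0.036). Whether RNA of these cell types takes part in the differences below was not tested. Values without the trans-fat/HFCS arrays, given for VNN1 and KLB, leave out the arrays with high skeletal muscle markers. They keep the combined arrays, on which sums of other markers differed, so they bear on skeletal muscle alone. In bulk tissue, fewer cells of a type and less RNA per cell cannot be told apart.

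On the diets with trans fat and HFCS, VNN1 and ANGPTL4 rose, and no call was made for PDK4, FGF21, CYP4A11, EHHADH or CREB3L3. CPT1A was called lower through its high level on the MSG arrays and differed by only -0.06 between trans-fat/HFCS and control. The main effect is the mean of the trans-fat/HFCS minus control and combined minus MSG differences, 4 arrays against 4. In limma, with Benjamini-Hochberg adjustment over all genes and a threshold of 0.05, 3 of 8 members were called, 2 higher and 1 lower. Of all genes, 7.66% were called, 4.44% higher and 3.22% lower. The median log2 difference was 0.09 over the members and 0.02 over all genes. VNN1 and ANGPTL4 were higher on every trans-fat/HFCS or combined array than on any control or MSG array, a separation that 8.29% of all genes showed in that direction.

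**Figure D1:**
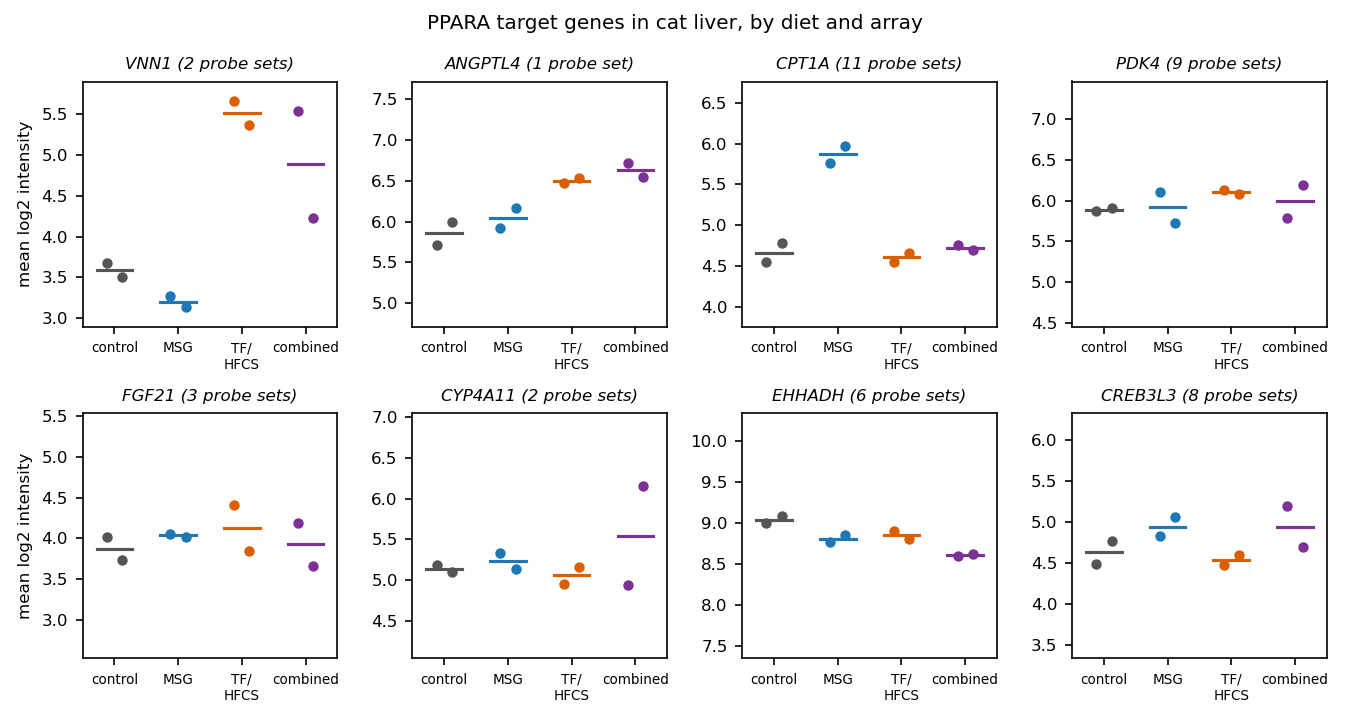
Log2 intensity (vertical axis) of each gene on each array (points), with the mean of the 2 arrays of each diet as a bar; TF/HFCS is the trans-fat/HFCS diet. Each panel spans 3 log2 units. VNN1 and ANGPTL4 are higher on the trans-fat/HFCS and combined arrays, and CPT1A is high on the MSG arrays alone.

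VNN1 encodes pantetheinase, an enzyme that splits pantetheine into cysteamine and the coenzyme A precursor pantothenate. Its log2 intensity was 3.67 and 3.51 on the control arrays, 3.27 and 3.13 on the MSG arrays, 5.66 and 5.37 on the trans-fat/HFCS arrays and 5.54 and 4.23 on the combined arrays. The lowest of the trans-fat/HFCS and combined values, from a combined array, was still above the highest of the other 4. VNN1 rose by 1.80 ± 0.25 (SE, n = 4 against 4) on the log2 scale, or 3.49-fold, with a 95% interval of 1.23 to 2.37 (limma adjusted p = 0.0051). It was called when any 1 array was left out (adjusted p from 0.00056 to 0.028). Among the pairs of diets, the rise in VNN1 passed between trans-fat/HFCS and control, at 1.92 ± 0.35 or 3.79-fold (adjusted p = 0.028 in limma). Between combined and MSG it was 1.68 ± 0.35 and short of the threshold (adjusted p = 0.056 in limma), and between combined and control 1.29 ± 0.35 (adjusted p = 0.12). The 2 combined arrays, at 5.54 and 4.23, disagreed. Without the second combined array these differences became 2.34 and 1.95, and without the first the difference from MSG became 1.03. The call against control was lost without either control, either MSG or either trans-fat/HFCS array (adjusted p from 0.056 to 0.16). With both trans-fat/HFCS arrays left out, on which skeletal muscle genes were high, the main effect reduces to combined minus MSG. That VNN1 difference was the same 1.68, with an adjusted p of 0.074 in limma without those arrays.

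The cat gene table used for names does not list VNN1 under that symbol, so which cat transcript its human probe sets read was not checked. Only 2 of the 8 VNN1 probe sets were kept, and they differed on single arrays. Probe set 8129619 read 4.30 and 4.53 on control, 3.89 and 2.23 on MSG, 6.06 and 5.64 on trans-fat/HFCS and 5.45 and 5.64 on combined arrays. Its arrays with and without trans fat did not overlap, and its difference was 1.96 ± 0.38 (adjusted p = 0.054 over 111624 probe sets in limma). Probe set 8129626 read 3.04 and 2.49, 2.66 and 4.03, 5.26 and 5.10, and 5.63 and 2.81 in the same order of diets. It was low on the second combined array, which is the array where the VNN1 gene value was 4.23, and its groups overlapped (1.64 ± 0.64, adjusted p = 0.27 in limma). Averaged over all 8 VNN1 probe sets, dim ones included, the main effect was 0.41 (adjusted p = 0.062).

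**Figure D2:**
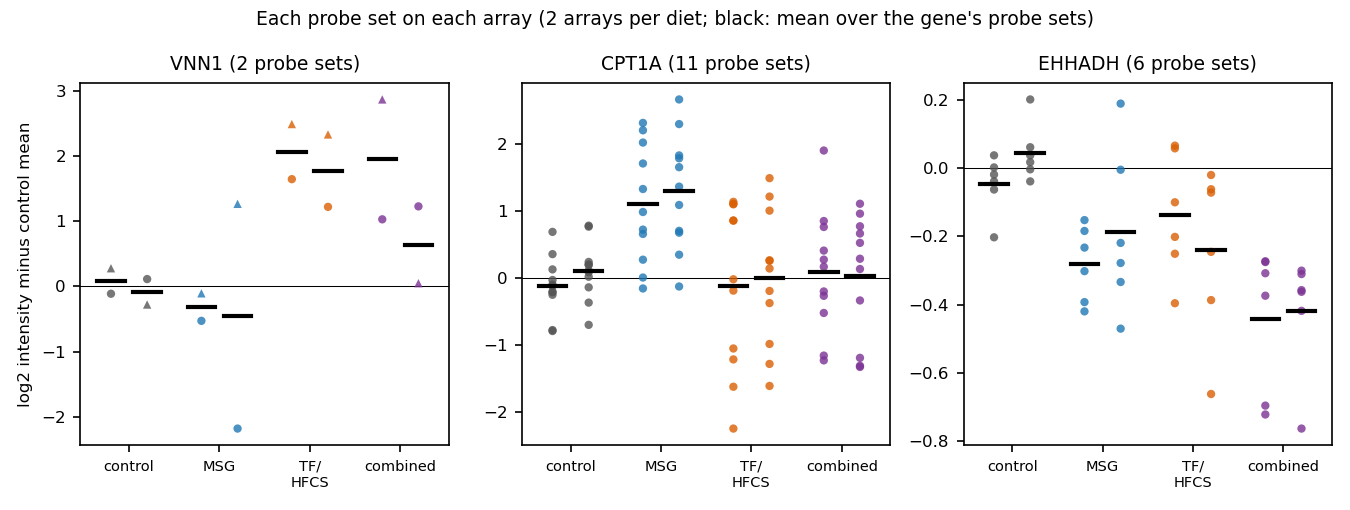
Log2 intensity minus the probe set's control mean (vertical axis) for each kept probe set (points) of VNN1, CPT1A and EHHADH on the 2 arrays of each diet, with the mean over probe sets as a black bar; TF/HFCS is the trans-fat/HFCS diet. In the VNN1 panel circles are probe set 8129619 and triangles 8129626. CPT1A probe sets lie mostly above 0 on MSG arrays and spread to both sides on trans-fat/HFCS arrays, and all 6 EHHADH probe sets lie below 0 on the combined arrays.

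ANGPTL4 is a secreted inhibitor of lipoprotein lipase, the enzyme that frees fatty acids from circulating triglyceride. Its values were 5.71 and 5.99 on control, 5.92 and 6.17 on MSG, 6.47 and 6.53 on trans-fat/HFCS and 6.71 and 6.55 on combined arrays. Both diets with trans fat lay above both without it, with no overlap. ANGPTL4 rose by 0.61 ± 0.13 (SE, n = 4 against 4), or 1.53-fold, with a 95% interval of 0.33 to 0.90 (limma adjusted p = 0.024). The call held without the second MSG array (adjusted p = 0.045) or the second combined array (adjusted p = 0.037), and was lost when any of the other 6 was left out (adjusted p from 0.053 to 0.095). For the pairs of diets the ANGPTL4 difference was 0.65 against control (adjusted p = 0.10 in limma), 0.58 for combined against MSG (adjusted p = 0.15) and 0.77 for combined against control (adjusted p = 0.085). These values rest on 1 kept probe set of 11, and over all 11 the main effect was 0.00 (adjusted p = 0.98). With the median of probe sets as the gene value the ANGPTL4 values stayed the same, because it has 1 kept probe set. Its limma adjusted p became 0.097 only because the values of other genes changed, which alters the shared spread and the adjustment.

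CPT1A is the outer mitochondrial membrane enzyme that joins long-chain fatty acids to carnitine, the step that commits them to oxidation. Its values were 4.55 and 4.78 on control, 5.77 and 5.97 on MSG, 4.55 and 4.66 on trans-fat/HFCS and 4.76 and 4.69 on combined arrays. Both MSG arrays stood above the other 6, which all lay between 4.55 and 4.78. CPT1A rose by 1.20 ± 0.17 (SE, n = 2 against 2), or 2.30-fold, on the MSG diet against control (95% interval 0.82 to 1.59, limma adjusted p = 0.027). It was the only member called in that comparison, in which 0.296% of all genes were called, and 1 of 9 genes called higher, 0.0503% of all. On the combined diet CPT1A fell by 1.14 ± 0.17 against MSG, or 2.20-fold (limma adjusted p = 0.015), the only member among the 1.66% of all genes called there. Between trans-fat/HFCS and control the CPT1A difference was -0.06 ± 0.17 (95% interval -0.44 to 0.33, adjusted p = 0.90 in limma), and between combined and control it was 0.06. The main effect of -0.60 ± 0.12 (adjusted p = 0.022 in limma) thus averaged 1 large and 1 small difference. Without the 2 MSG arrays only the trans-fat/HFCS minus control difference remained, at -0.06 (adjusted p = 0.90 in limma).

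The difference between the MSG effects on the 2 base diets was -1.08 ± 0.24 for CPT1A and did not pass (adjusted p = 0.21, unadjusted p = 0.0015 in limma). The MSG call for CPT1A held without either combined array (adjusted p = 0.042 each). It was lost without any 1 of the control, MSG or trans-fat/HFCS arrays (adjusted p from 0.056 to 0.29). It was also lost with the 75th percentile filter (adjusted p = 0.057), with the median of probe sets (adjusted p = 0.11) and in a fit of those 2 diets alone (adjusted p = 0.067), and with the brightest CPT1A probe set alone the difference was 0.10 (adjusted p = 0.98). The call between combined and MSG was lost without either MSG array (adjusted p = 0.081 and 0.11) or either combined array (adjusted p = 0.058 and 0.065). The call in the main effect held only without 1 or the other combined array (adjusted p = 0.047 and 0.046), with 0.051 to 0.087 without any of the other 6.

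The 11 kept CPT1A probe sets did not all move alike. On the MSG diet 10 of 11 were higher than control, from -0.05 to 2.26, and 9 had no overlap, where 18.1% of all kept probe sets had none in that direction. None of the 11 was called singly in that comparison, where 0.12% of all kept probe sets were. In the trans-fat/HFCS main effect 7 were lower and 4 higher, from -1.60 to 0.23. Probe set 7949985 read 3.35 and 3.76 on control, 4.89 and 4.24 on MSG, 2.35 and 1.95 on trans-fat/HFCS and 2.33 and 3.23 on combined arrays, and was called lower, at -1.60 (adjusted p = 0.048 in limma). Of its 4 values on arrays with trans fat 3 were under the brightness limit of 2.43, so the size of that difference is uncertain. Probe set 7949993 read 6.73 and 6.46, 6.61 and 6.48, 4.36 and 5.32, and 5.45 and 5.29 in the same order, high on MSG as on control arrays, and fell by 1.47 (adjusted p = 0.043 in limma). The brightest CPT1A probe set, 7949988, changed by 0.23 in the main effect (adjusted p = 0.53) and by 0.40 between combined and MSG (adjusted p = 0.49), against the direction of the gene value.

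**Figure D3:**
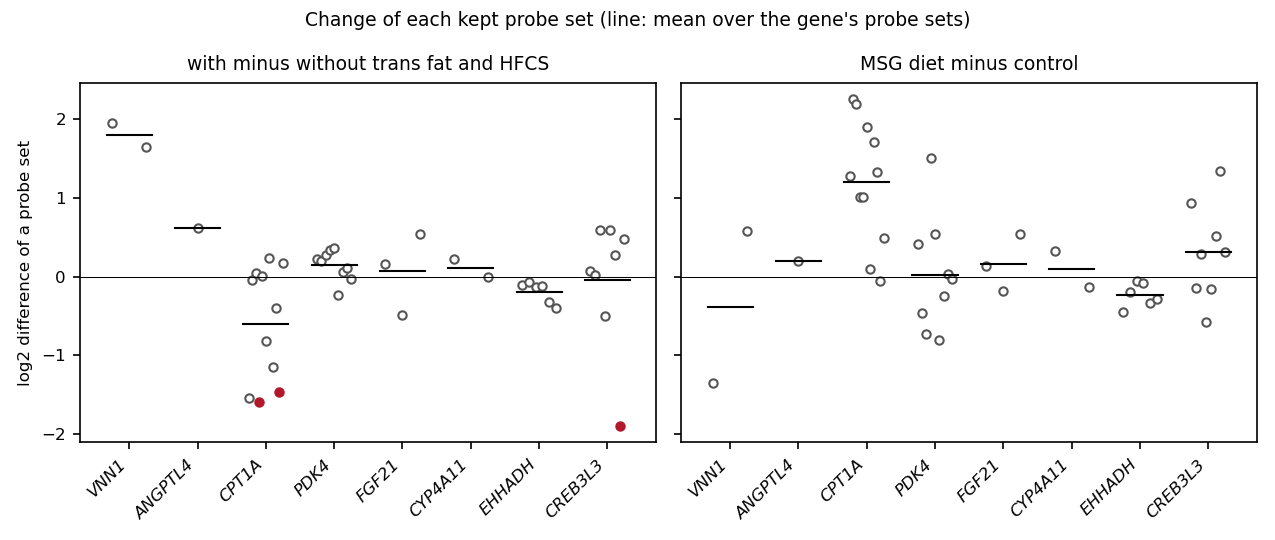
Log2 difference (vertical axis) of each of the 42 kept probe sets (circles), by gene, with the mean per gene as a line, for the trans-fat/HFCS main effect and for MSG against control. Filled red points passed the adjusted p threshold over 111624 probe sets: 2 of CPT1A and 1 of CREB3L3 in the first panel and none in the second. That of CREB3L3 and the lower of CPT1A read mostly under the brightness limit on arrays with trans fat.

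EHHADH is the peroxisomal bifunctional enzyme, which carries out consecutive steps of fatty acid oxidation in peroxisomes. Its values were 8.99 and 9.09 on control, 8.76 and 8.86 on MSG, 8.90 and 8.80 on trans-fat/HFCS and 8.60 and 8.62 on combined arrays. The combined arrays were below all others and the control arrays above all others, and 23.1% of all genes were lower on both combined than on both control arrays. The EHHADH difference was -0.43 ± 0.16 between combined and control (95% interval -0.79 to -0.08), which did not pass (adjusted p = 0.22 in limma). All 6 kept EHHADH probe sets were lower on both combined arrays than on both control arrays, by 0.29 to 0.74, where 22.5% of all kept probe sets were. The values were -0.19 ± 0.11 in the trans-fat/HFCS main effect (adjusted p = 0.32 in limma) and -0.24 ± 0.11 in the MSG main effect (adjusted p = 0.66).

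CREB3L3, a membrane-bound transcription factor that is released by cleavage and acts on FGF21 and apolipoprotein genes, read 4.49 and 4.77 on control and 4.83 and 5.06 on MSG arrays. On trans-fat/HFCS arrays it read 4.48 and 4.60, and on combined arrays 5.19 and 4.70. Both MSG arrays were above both control arrays, as in 19.8% of all genes. Both combined arrays were above both trans-fat/HFCS arrays, a separation whose share of all genes is not reported here. The MSG main effect on CREB3L3 was 0.36 ± 0.15 (adjusted p = 0.60 in limma). In the trans-fat/HFCS main effect CREB3L3 was -0.05 ± 0.15 (adjusted p = 0.88), with 6 of its 8 kept probe sets positive. Probe set 8024762 read 3.68 and 3.21 on control, 4.38 and 5.22 on MSG, 2.21 and 1.88 on trans-fat/HFCS and 2.79 and 2.01 on combined arrays, and was called lower, at -1.90 ± 0.30 (adjusted p = 0.030 in limma). It was kept through the control and MSG arrays, and 3 of its other 4 values were under the limit of 2.43, so the size is uncertain. With the 2 CPT1A probe sets it made 3 of 42 member probe sets called, where 2.45% of all kept probe sets were called. With any 1 array left out, 0 or 1 of these member probe sets was called.

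PDK4 phosphorylates and inactivates pyruvate dehydrogenase, which spares glucose when fat is burned. It read 5.87 and 5.91 on control, 6.11 and 5.72 on MSG, 6.13 and 6.09 on trans-fat/HFCS and 5.79 and 6.19 on combined arrays. The trans-fat/HFCS arrays were above both control arrays, as in 26.7% of all genes, and the other diets overlapped. In that comparison 6 kept PDK4 probe sets were higher and 3 lower, from -0.49 to 1.44. The largest rise was on probe set 8141098, with means of 2.65 on control and 4.09 on trans-fat/HFCS arrays. The brightest probe set, 8141096, had means of 9.61 and 9.59. The PDK4 main effect of trans-fat/HFCS was 0.14 ± 0.14 with a 95% interval of -0.18 to 0.47 (adjusted p = 0.58 in limma), and its 9 kept probe sets on MSG against control ran from -0.80 to 1.51, 4 higher and 5 lower.

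CYP4A11 is a fatty acid omega-hydroxylase. It read 5.19 and 5.10 on control, 5.33 and 5.14 on MSG, 4.96 and 5.16 on trans-fat/HFCS and 4.94 and 6.15 on combined arrays. A single combined array was high, and the diets overlapped. On that array probe set 7915904 read 4.32, against at most 3.07 on any other array. The brighter probe set 7915907 read 7.99 there, against at most 7.86 on any other. The CYP4A11 main effect of trans-fat/HFCS was 0.11 ± 0.23, with a 95% interval of -0.42 to 0.64 (adjusted p = 0.81 in limma), on 2 of 7 probe sets. Genes of the CYP4A family resemble one another in sequence, and these probe sets may not separate them in the cat.

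**Figure D4:**
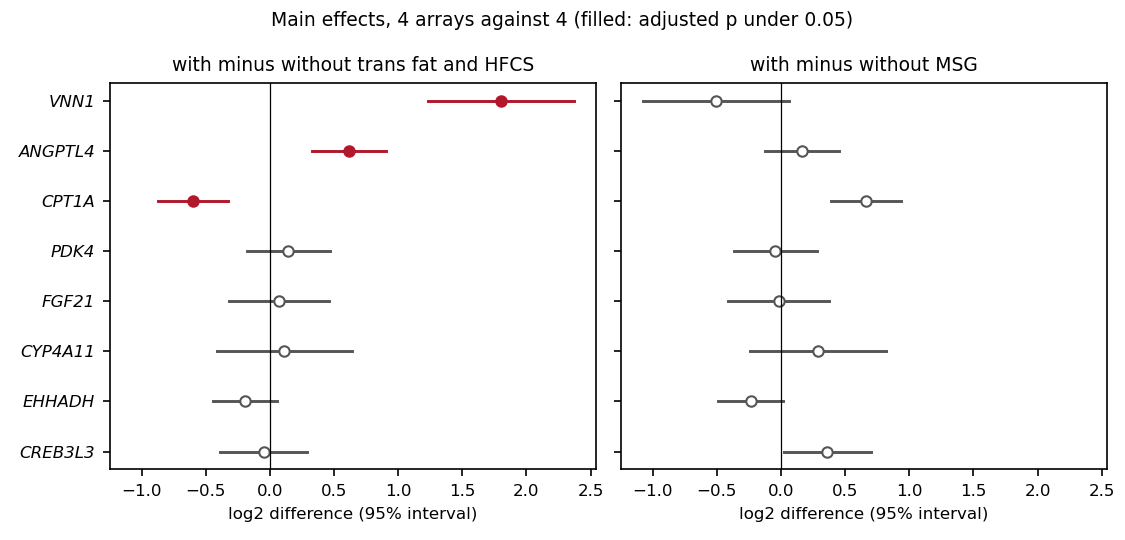
Log2 difference (horizontal axis) with its 95% interval (bars) for each of the 8 genes, for the trans-fat/HFCS and MSG main effects, 4 arrays against 4. Filled red points passed the threshold: VNN1, ANGPTL4 and CPT1A for trans-fat/HFCS and none for MSG.

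No member was called in the MSG main effect, where 0.329% of all genes were. The smallest member p was that of CPT1A, at 0.66 ± 0.12 (adjusted p = 0.077 in limma). At an unadjusted p under 0.05 there were 2 of 8, CPT1A and CREB3L3, where 7.91% of all genes passed. With 16 added to the intensities, or with a trended and robust spread, CPT1A was called (adjusted p = 0.017 and 0.038). The interaction gave 0 of 8, with CPT1A alone at an unadjusted p under 0.05, against 0.151% and 9.07% of all genes. The combined diet against the trans-fat/HFCS diet gave 0 of 8 against 0.179%, and 0 of 8 at an unadjusted p under 0.05 against 8.98%. The combined diet against control gave 0 of 8 against 1.16%, and VNN1, ANGPTL4 and EHHADH, 3 of 8, at an unadjusted p under 0.05 against 16.5%. With 16 added or a trended spread, ANGPTL4 and EHHADH were called there (adjusted p from 0.016 to 0.038). In the comparison of trans-fat/HFCS with control, VNN1 was 1 of 8, against 2.48% of all genes.

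FGF21 is a fasting hormone of the liver that acts through a receptor made of an FGF receptor and the co-receptor beta-Klotho, encoded by KLB. FGF21 read 4.02 and 3.73 on control, 4.05 and 4.02 on MSG, 4.40 and 3.85 on trans-fat/HFCS and 4.19 and 3.66 on combined arrays. All 4 diets overlapped except that both MSG arrays were just above both controls, as in 19.8% of all genes. Its main effect was 0.07 ± 0.17 (95% interval -0.32 to 0.46, adjusted p = 0.84 in limma), with 2 of 3 kept FGF21 probe sets higher and the brightest lower.

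The co-receptor gene KLB fell. It read 5.81 and 6.11 on control, 6.32 and 5.78 on MSG, 4.25 and 4.45 on trans-fat/HFCS and 4.57 and 4.78 on combined arrays. No array of a diet with trans fat reached any array without, a separation whose share of all genes is not reported here. KLB fell by 1.49 ± 0.16 in the main effect, 2.81-fold (adjusted p = 0.0015 in limma), and the call held with any 1 array left out. Against control KLB fell by 1.61 ± 0.22 on trans-fat/HFCS, or 3.05-fold (adjusted p = 0.0094), and by 1.28 ± 0.22 on the combined diet (adjusted p = 0.036). Against MSG the combined diet showed a fall of 1.38 ± 0.22, or 2.60-fold (adjusted p = 0.021). Of its 5 kept probe sets 4 were lower and 1 higher, and 3 of the 5 were called. With both trans-fat/HFCS arrays left out, only the combined minus MSG difference of KLB remained, at -1.38 (adjusted p = 0.033 in limma). The calls of KLB against control were lost on trans-fat/HFCS without the first trans-fat/HFCS array or either control array (adjusted p from 0.057 to 0.095). On the combined diet the KLB call was lost without either trans-fat/HFCS, combined or control array (adjusted p from 0.051 to 0.23), and against MSG without the first MSG or either combined array (adjusted p from 0.057 to 0.15).

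FGFR2, one of the FGF receptors, read 4.50 and 4.59 on control, 5.30 and 5.29 on MSG, 4.83 and 4.77 on trans-fat/HFCS and 4.28 and 4.43 on combined arrays. The 4 diets did not overlap, a pattern whose share of all genes is not reported here, and the MSG arrays were highest. FGFR2 fell by 0.94 ± 0.16 on the combined diet against MSG (adjusted p = 0.025 in limma), a call that held only without either trans-fat/HFCS array (adjusted p = 0.040) and was otherwise between 0.054 and 0.16. In the trans-fat/HFCS main effect FGFR2 changed by -0.35 (adjusted p = 0.096 in limma), FGFR4 by -0.22 (adjusted p = 0.29) and FGFR1 by 0.12. FGFR3 was higher with trans fat, with means of 3.49 on control, 3.46 on MSG, 3.79 on trans-fat/HFCS and 3.74 on combined arrays, and single arrays overlapped. The partner list of the member proteins, which also held lipases, pyruvate dehydrogenase, coenzyme A synthesis and CREB3L3 target genes, had 24 of 24 genes measured, with KLB the only call in the main effect and a median of -0.06.

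**Figure D5:**
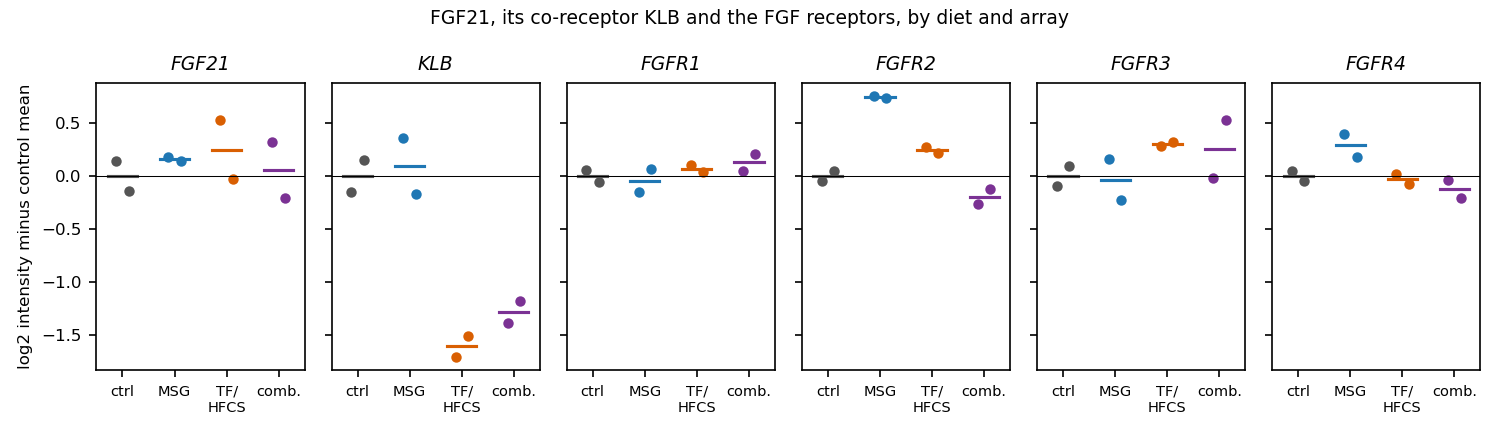
Log2 intensity minus the control mean (vertical axis) on each array (points, with the diet mean as a bar) for FGF21, its co-receptor gene KLB and FGF receptor genes, by diet; TF/HFCS is the trans-fat/HFCS diet. KLB is lower on all 4 trans-fat/HFCS and combined arrays, and FGF21 overlaps across diets.

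The receptor itself was not called. PPARA read 4.50 and 5.01 on control, 4.69 and 3.87 on MSG, 4.31 and 4.34 on trans-fat/HFCS and 4.18 and 4.92 on combined arrays, on 2 probe sets. The trans-fat/HFCS arrays were below both controls, a separation whose share of all genes is not reported here. The other diets overlapped, and the PPARA main effect was -0.08 ± 0.23 (adjusted p = 0.87 in limma). Of 17 receptor and coactivator genes 15 were measured, with 0 called higher, 2 lower and a median of -0.17 against 0.02 over all genes, of which 4.44% were called higher and 3.22% lower. LPIN1, lipin 1, which is a phosphatidate phosphatase and a coactivator of PPARA with PGC-1alpha, fell by 0.57 ± 0.11 (adjusted p = 0.022 in limma). NCOA1, a coactivator of nuclear receptors, fell by 0.59 ± 0.12 (adjusted p = 0.025 in limma). Leaving out 1 array lost the LPIN1 call except for the second MSG and second combined arrays, and the NCOA1 call except for the first combined and first control arrays (adjusted p up to 0.089 and 0.095). In the MSG main effect no gene of this list was called, and the fatty acid binding protein FABP1 had the smallest p, at 0.75 ± 0.17 (adjusted p = 0.19 in limma).

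Few other PPARA targets were called. Of 59 listed, 56 were measured, and in the trans-fat/HFCS main effect 1 was called higher and 1 lower, against 4.44% and 3.22% of all genes. In that comparison 29 were positive and 27 negative. Between trans-fat/HFCS and control 36 were positive and 20 negative, with a median of 0.17, and between combined and MSG 18 and 38, with a median of -0.14. The medians over all genes were 0.01 in both. Between MSG and control 37 were positive and 19 negative, with a median of 0.07, and between combined and control 33 and 23, with a median of 0.09. The medians over all genes there were 0.004 and 0.02. Between combined and trans-fat/HFCS 24 were positive and 32 negative, with a median of -0.04 against 0.0003 over all genes. The combined diet thus leaned negative against MSG and, by a smaller median, against trans-fat/HFCS, and not against control. ACSL3, which activates long-chain fatty acids and is found on lipid droplets, read 6.19 and 6.45 on control, 6.25 and 6.18 on MSG, 5.53 and 5.38 on trans-fat/HFCS and 5.44 and 5.53 on combined arrays. The 2 sides did not overlap, a separation whose share of all genes is not reported here. ACSL3 fell by 0.80 ± 0.12, or 1.74-fold (adjusted p = 0.0070 in limma), with the call held without any 1 array. ACSL3 also fell by 0.87 ± 0.17 on trans-fat/HFCS against control (adjusted p = 0.035), a call that held only without either combined array (adjusted p = 0.041). APOA5, an apolipoprotein that lowers plasma triglyceride, read 4.54 and 4.90 on control, 5.09 and 5.13 on MSG, 5.41 and 5.34 on trans-fat/HFCS and 5.58 and 5.64 on combined arrays. All 4 of its kept probe sets were positive, and APOA5 rose by 0.58 ± 0.12 (adjusted p = 0.026 in limma), a call that held only without the second control array (adjusted p = 0.045). On MSG against control no gene of this list was called, and PLIN2, a lipid droplet protein, had the smallest p of those with a value of 0.88 ± 0.20 (adjusted p = 0.20 in limma). In the MSG main effect the smallest p of this list were those of PLIN2, at 0.50 ± 0.14 (adjusted p = 0.36 in limma), and ECH1, an enzyme of fatty acid oxidation, at 0.41 ± 0.12 (adjusted p = 0.39).

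Paralogs of the members gave 0 calls among 25 measured of 26 in the trans-fat/HFCS main effect, where 7.66% of all genes were called, with a median of 0.05. VNN2 and VNN3, relatives of VNN1, had differences of -0.50 ± 0.17 (adjusted p = 0.12 in limma) and -0.34 ± 0.15 (adjusted p = 0.22), opposite in sign to VNN1.

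Across the 8 arrays, the genes whose pattern was most like that of a member were chosen by Pearson's r from 14830 other genes with at least 2 kept probe sets, a description over 4 diets with no test. They were MEN1 (0.992), B3GNT5 (0.991) and AARSD1 (0.987) for VNN1, and CDK2AP1 (0.990), TCP10L (0.976) and CAMK2N2 (0.976) for ANGPTL4, for which 14831 genes were searched. For CPT1A they were DIO2 (0.981), SLC25A25 (0.966) and P2RY13 (0.953), and for EHHADH ZHX2 (0.991), BACE2 (0.965) and SLC43A2 (0.960). For PDK4 they were PRF1, EIF3K and CLEC7A, for FGF21 PPBP, RUNX3 and PDE6H, for CYP4A11 POLM, UROC1 and WFIKKN2, and for CREB3L3 ZNF446, ZNF613 and GTF2H3, with r from 0.927 to 0.966. Between members, VNN1 and ANGPTL4 had r of 0.79 and VNN1 and CPT1A -0.64. The arrays come from 4 diets with 2 arrays each, so they are not independent points.

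Of the 47 probe sets left out as dim, values ran from 1.45 to 3.46 on single arrays. At the limit, the dimmest kept probe set was 1 of PDK4 with a mean of 2.43 and the brightest left out was 1 of VNN1 with a mean of 2.40.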

How the data were processed

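RNA of cat liver was hybridised to human HuGene 1.0 ST arrays. The authors deposited normalized intensities per probe set; per the submitters' processing notes, which give no versions or order, GCRMA, Partek and hg19 are listed. The deposited intensities were log2 transformed here. The platform annotation names 1 gene for 224320 of 257101 probe sets; the 111624 of these above the median probe set (intensity 5.38) were averaged into 17910 genes. A 4-group model of all 8 arrays was fitted with limma 3.58.1 in R 4.3.3 (4 residual degrees of freedom, prior 5.01), two-sided, with Benjamini-Hochberg adjustment, and again for each probe set. Errors are limma's standard errors. The steps were tested on simulated data.

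The members and lists were chosen with earlier results of these data known. List genes were named where they passed the threshold, at most 4 per direction, otherwise up to 2 of smallest p; a few more partner genes and paralogs are given with their values. Some listed genes are not reported here. Alternatives were other filters and summaries of probe sets, quantile normalization, 16 added to the intensities, fewer diets, no interaction, a trended spread, a replicate block and arrays left out; leaving out the 2 MSG arrays was chosen after seeing the data. The number of arrays limits the precision.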

Additional observations from a re-analysis of the deposited data

Results flagged for a closer look

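FGFR2 stood out for opposite MSG effects on the 2 base diets. Both MSG arrays were above both control arrays, as in 19.8% of all genes. Both combined arrays were below both trans-fat/HFCS arrays, a separation whose share of all genes is not reported here. The 2 effects differed by -1.19 in log2 change, which did not pass the interaction test in limma (adjusted p = 0.13). A VNN1 probe set that was left out as dim averaged 2.61 on the trans-fat/HFCS arrays, from 2.47 and 2.76, above both control arrays at 2.08 and 2.21 and above the filter limit of 2.43. It was lower on the combined arrays, at 2.08 and 1.75, and an MSG array was highest, at 3.24.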

How the results depend on the processing

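Members called in the trans-fat/HFCS main effect numbered 3, and 1 with dim probe sets kept or with the median of probe sets. Without both trans-fat/HFCS arrays, which leaves combined minus MSG, the count was 1. Without both MSG arrays, which leaves trans-fat/HFCS minus control, it was 0. For the MSG main effect (0), adding 16 or a trended spread gave 1. For the interaction (0), adding 16 gave 1. For trans-fat/HFCS against control (1), no filter, the median or the brightest probe set gave 0, and adding 16 or a trended spread 2. The median of the 2 kept VNN1 probe sets is their mean, so with the median its values stayed the same and only its adjusted p moved. For combined against MSG (1), the median and the fit of those 2 diets alone gave 0, the trended spread 2 and adding 16 3. For MSG against control (1), the 75th percentile filter, the median, the brightest probe set and the fit of 2 diets gave 0. For combined against control (0), adding 16 or a trended spread gave 2. Called probe sets (3) became 1 with no filter. Leaving out 1 array gave 1 to 3 members in the trans-fat/HFCS main effect and 0 to 1 for trans-fat/HFCS against control, combined against MSG, MSG against control and combined against control, and 0 to 1 probe sets. CPT1A reversed with its brightest probe set, to 0.23 in the trans-fat/HFCS main effect and 0.40 for combined against MSG; the cause was not tested. The counts of all genes moved too: 1372 in the trans-fat/HFCS main effect became 595 with the median of probe sets and 2434 with 16 added. Of 996 values of results not called, 113 turned sign, none of them called. Same-numbered arrays did not deviate together (correlations from -0.0555 to 0.0433), so the numbers do not pair them. With the replicate block the trans-fat/HFCS main effect kept a count of 3, combined against MSG gave 2, MSG against control 0 and the probe sets 0.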
